A study of Rattus norvegicus with 6 samples.

Results

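The genes of fibroblast growth factor (FGF) signalling were compared between 2 cell fractions of rat epididymis, basal and non-basal. They were chosen by symbol: every gene whose name begins with Fgf, the Sprouty genes Spry1 to Spry4, the Spred genes, the Flrt genes, the klotho coreceptor genes and the adaptor genes Frs2 and Frs3. Of 18166 genes that the arrays measured under a single symbol, 42 met this rule, each through 1 probe set. Fgf18 and Klb were not analysed here. Epididymides of Sprague-Dawley rats aged 48 days had been divided magnetically into a basal and a non-basal cell fraction, with 3 Affymetrix RaGene 2.0 ST arrays for each. All animals shared the strain and the age, and no treatment or genetic change is named for either fraction. The labels name 3 rats but tie no array to an animal, and they do not name the surface molecule used for the separation. Each p-value thus rests on the spread of these arrays alone, and part or all of that spread may be technical. Values are log2 expression in units of RMA, the array summary the authors used, and 1 unit is a 2-fold step.

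FGFs are secreted proteins that bind receptor tyrosine kinases on nearby cells together with heparan sulphate. The bound receptor phosphorylates the adaptor FRS2, which switches on the Ras and ERK cascade, and ERK in turn induces genes that damp the signal, among them the Sprouty and Dusp6 genes. In many organs FGF7 and FGF10 are made by mesenchyme and act on an epithelial splice form of FGFR2. In the rodent epididymis FGFs reaching the duct lumen from the testis are known to act on the initial segment, where ETS factors of the Etv group depend on them.

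The basal fraction carried the markers its label calls for, while most principal and clear cell markers did not pass between the fractions. All 9 measured basal epithelial markers, Krt14, Tp63 and Itga6 among them, were higher in the basal fraction, and their mean level was 10.81 to 11.18 on basal arrays against 7.75 to 8.72 on non-basal arrays. The 8 fibroblast markers, among them Lum, Dcn and Pdgfra, had a mean level of 7.13 to 9.29 on basal and 11.59 to 12.49 on non-basal arrays, and all 8 were lower. All 7 smooth muscle and pericyte markers were lower as well, at 8.18 to 8.93 against 10.57 to 10.76, and all 7 endothelial markers, at 6.88 to 7.32 against 8.58 to 8.76. Principal cell markers, at 10.81 to 11.54 against 11.77 to 11.99, were lower for 2 of 8. Of these 8 markers, 4 had an unadjusted limma p under 0.05 and 4 did not overlap between fractions, with a median difference of -0.65. Over all 18166 genes, 5443 had such a p and 32.9% did not overlap. Clear cell and macrophage markers were lower for 0 of 6 each, with 0 and 1 of them at an unadjusted limma p under 0.05. Their median differences were -0.20 and -0.61. Lymphocyte markers were lower for 6 of 8, at 5.72 to 6.43 against 7.75 to 8.54. For comparison with these marker counts, 7.71% of all genes were higher and 7.14% lower. Basal replicate 3 had the highest fibroblast, smooth muscle and endothelial levels of the basal arrays, and non-basal replicate 1 the lowest fibroblast level of the non-basal arrays. In such bulk fractions fewer cells of a type and less RNA per cell cannot be told apart.

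The receptors Fgfr2 and Fgfr3, the receptor-like gene Fgfrl1, the receptor partner Flrt3, the feedback inhibitor Spred2 and the intracellular homologue Fgf13 were higher in the basal fraction. The ligands Fgf7, Fgf10, Fgf2 and Fgf23, the receptor Fgfr1 and the coreceptor Kl were lower. Together 12 of the 42 genes passed limma's test at an adjusted p under 0.05, which is 28.6%, against 14.9% of all genes tested (7.71% higher and 7.14% lower). Since the 42 were chosen with earlier results of these data known, their share tests no excess. The basal and non-basal arrays did not overlap for 15 of the 42, or 35.7%, against 32.9% of all genes. The median log2 difference was 0.05 over the 42 genes and 0.00343 over all genes, and the median size of a difference was 0.20 against 0.17. On leaving out any 1 of basal replicates 1 and 2 and non-basal replicates 2 and 3, the number lower was 2. Over all genes the same fits called 509 to 624 higher and 542 to 637 lower, against 1401 and 1297 with no array left out. The loss of calls in these fits was thus not confined to the FGF genes. Without basal replicate 3 and non-basal replicate 1 together, 7 of the 42 genes were higher and 7 lower. The share of all genes called in that fit is not given here, so these counts say nothing particular about the FGF genes.

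**Figure D1:**
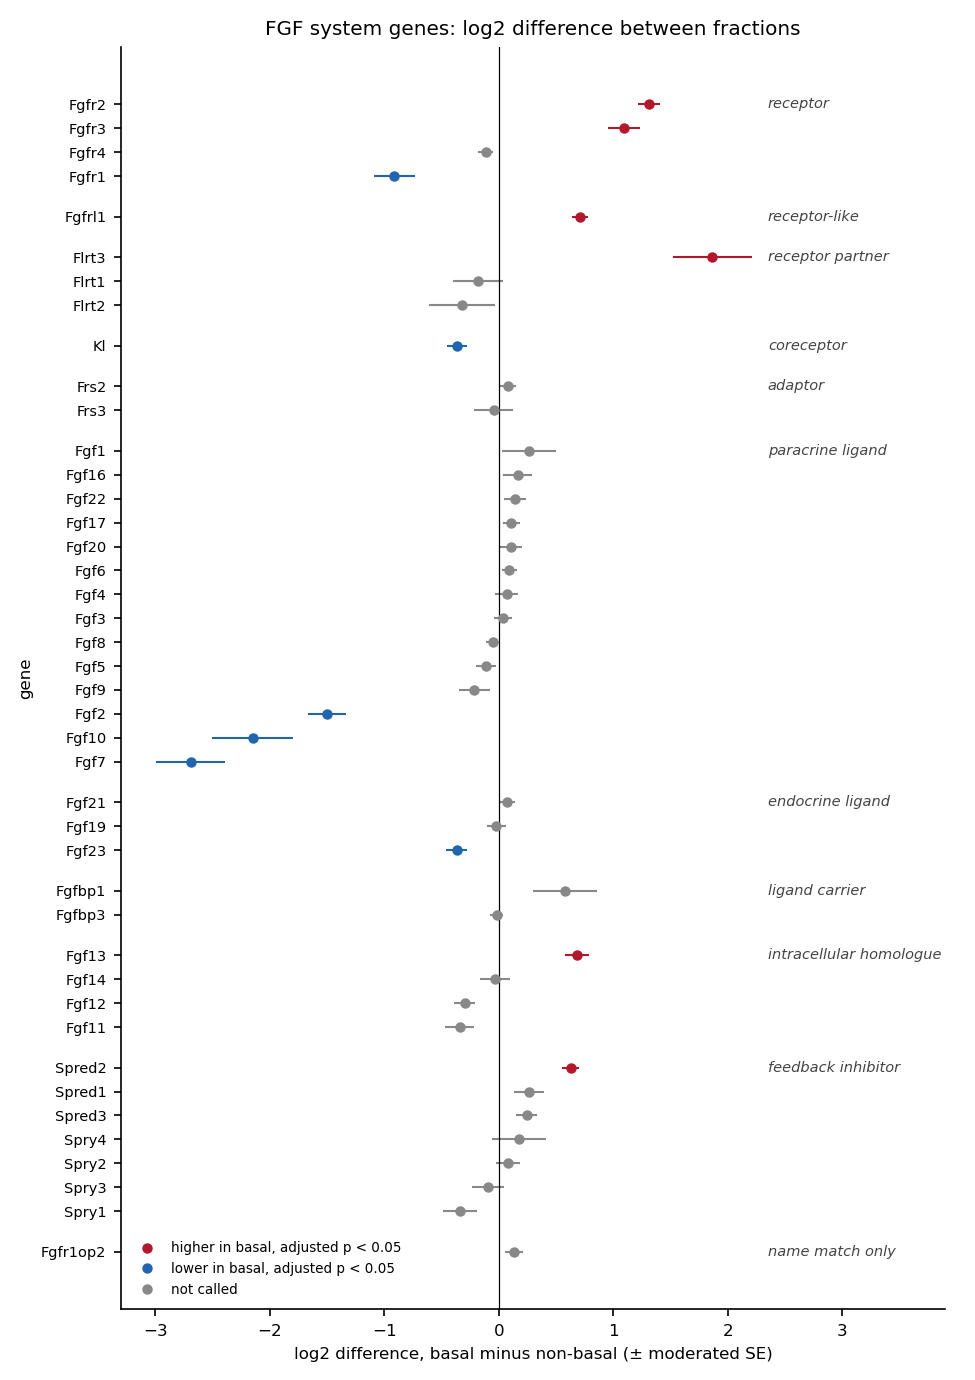
Log2 difference, basal minus non-basal, of the 42 FGF system genes, grouped by role (horizontal axis in log2 units, points are fitted differences and bars moderated standard errors). The 6 genes called higher reach 1.86 at Flrt3, and the 6 called lower reach -2.69 at Fgf7, while most ligands lie near 0.

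Among the receptors, Fgfr2, the receptor of epithelia for FGF7 and FGF10, had values of 11.42, 11.31 and 11.18 on the basal arrays, against 10.05, 10.06 and 9.86 on the non-basal arrays. Every basal array was at least a whole log2 unit above every non-basal one. The difference was 1.31 ± 0.0955 (SE, n = 3 each; limma adjusted p = 0.00206), or 2.48-fold. Its call held in each of the 6 fits on 5 arrays. Fgfr3, a receptor found on many epithelia, had 8.34, 8.23 and 7.83 on basal arrays, against 7.06, 6.99 and 7.08 on non-basal arrays. Basal replicate 3 was the lowest basal array but still clear of the other fraction. Its difference was 1.09 ± 0.138 (adjusted p = 0.00565), 2.14-fold, and also held in all 6 such fits. Among basal arrays replicate 3 also had the lowest mean of the basal epithelial markers, 10.81, and the part of cell makeup in the receptor differences was not tested.

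Fgfr1, a receptor typical of mesenchyme, ran the other way, with 9.39, 9.66 and 9.83 on basal arrays, against 10.22, 10.75 and 10.66 on non-basal arrays. Its difference was -0.91 ± 0.179 (SE, n = 3 each; limma adjusted p = 0.023), a 1.88-fold lower level in the basal fraction. That call was lost on leaving out any 1 of basal replicates 1 and 2 and non-basal replicates 2 and 3, where the adjusted p lay between 0.0842 and 0.105. Fgfr4 had 6.69, 6.76 and 6.73 on basal and 6.91, 6.85 and 6.76 on non-basal arrays, all close to the array medians of 6.63 to 6.70, and its difference of -0.11 ± 0.0675 did not pass (adjusted p = 0.312). Each value covers a whole gene, so the epithelial and mesenchymal splice forms of the receptors were not told apart.

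Fgfrl1, a receptor-like membrane protein that binds FGFs but has no kinase domain, had 9.66, 9.71 and 9.60 on basal arrays, against 8.89, 8.94 and 9.01 on non-basal arrays. The arrays of a fraction lay close together, with SDs of 0.0583 for basal and 0.0595 for non-basal arrays. The difference was 0.71 ± 0.0671 (SE, n = 3 each; limma adjusted p = 0.00292), and it held in each of the 6 fits on 5 arrays. Flrt3, a membrane protein with leucine-rich repeats that binds FGF receptors and promotes their signalling in Xenopus embryos, had the highest difference of the 42 genes. It had 11.39, 11.35 and 10.75 on basal arrays, against 8.57, 9.64 and 9.69 on non-basal arrays. Non-basal replicate 1 was lowest by about a log2 unit, yet the fractions did not overlap. The mean of the basal epithelial markers was also lowest on that array, at 7.75 against 8.70 and 8.72 on the other non-basal arrays, and its part in the Flrt3 difference was not tested. The difference was 1.86 ± 0.346 (adjusted p = 0.0191), 3.64-fold. The adjusted p was 0.0543 to 0.0923 on leaving out any 1 of basal replicates 1 and 2 and non-basal replicates 2 and 3. The related genes Flrt1 and Flrt2 did not pass, at -0.18 ± 0.221 and -0.32 ± 0.29.

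Kl encodes klotho, the coreceptor that FGF23 needs in kidney. It had 6.09, 6.12 and 5.96 on basal arrays, against 6.56, 6.35 and 6.37 on non-basal arrays, all below the array medians. Its difference of -0.37 ± 0.0865 passed (SE, n = 3 each; limma adjusted p = 0.0409) but not in any of the 6 fits on 5 arrays, where the adjusted p was 0.0609 to 0.115. With each array centred on its median the adjusted p was 0.0578. Of the adaptors that couple the receptors to Ras, Frs2 had 9.39, 9.38 and 9.23 on basal and 9.27, 9.27 and 9.21 on non-basal arrays, and the fractions overlapped. Its difference was 0.08 ± 0.0707 (adjusted p = 0.487), and that of Frs3 was -0.05 ± 0.168 (adjusted p = 0.88).

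**Figure D2:**
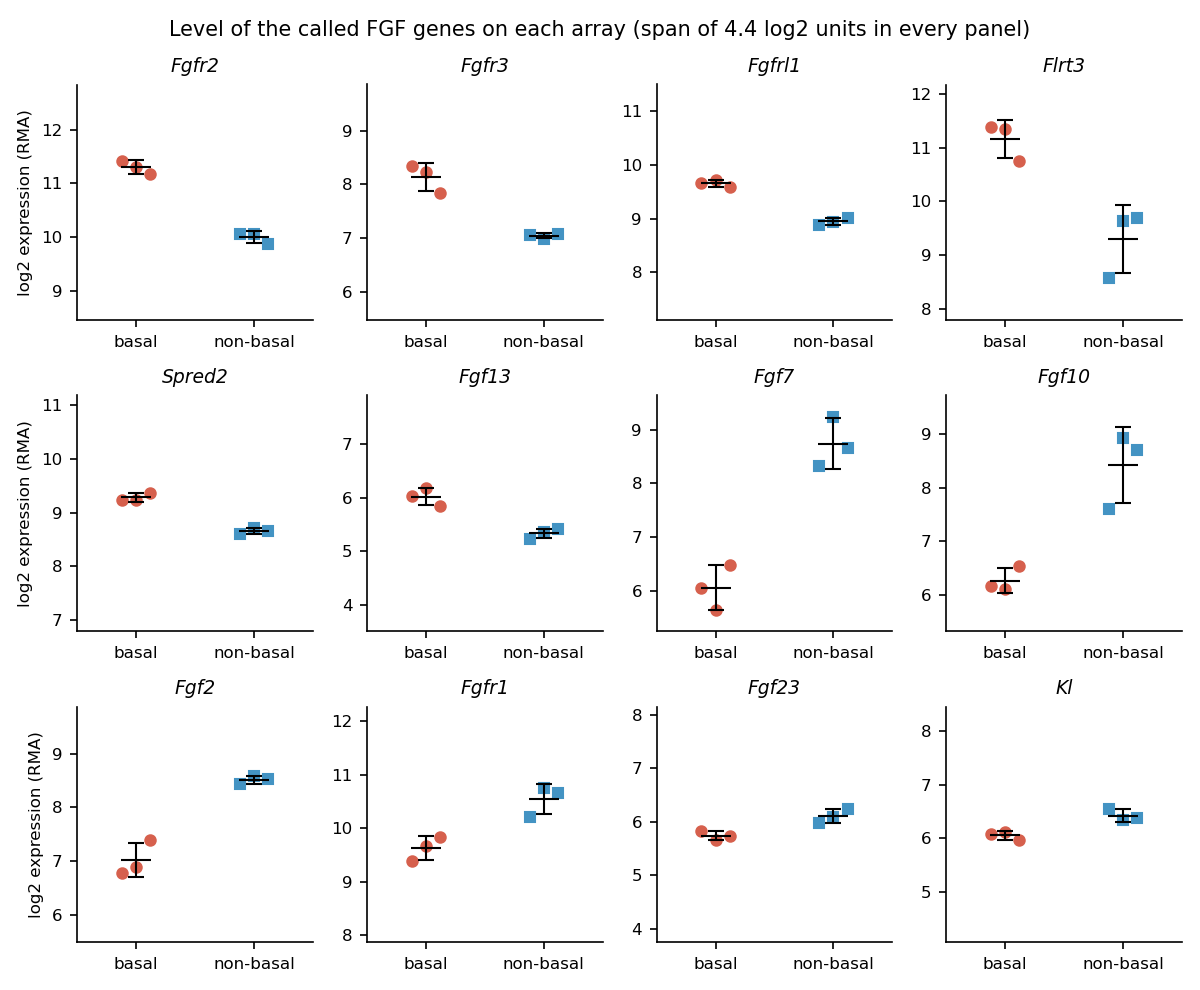
Level of the 12 called genes on each array, in log2 RMA units, with basal arrays (circles) left of non-basal arrays (squares); black bars give the mean and SD of 3 arrays, and every panel spans the same log2 range. The fractions are far apart for Fgf7, Fgf10, Fgf2, Fgfr2 and Flrt3 and close together for Fgf23 and Kl.

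The ligands that differed were lower in the basal fraction. Of 14 secreted paracrine ligands, 3 were lower, 0 were higher and 11 did not pass, and 0 of the 11 had an unadjusted limma p under 0.05. Of all genes, 7.14% were lower and 7.71% higher. On all 6 arrays 7 of the 14 ligands lay below the array median. Fgf7, also called keratinocyte growth factor, had 6.05, 5.63 and 6.47 on basal arrays, against 8.32, 9.25 and 8.66 on non-basal arrays. All basal values were below the array medians and all non-basal values were well above them. The difference was -2.69 ± 0.3 (SE, n = 3 each; limma adjusted p = 0.00422), a 6.46-fold lower level, and it held in each of the 6 fits on 5 arrays.

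Fgf10, which uses the same epithelial receptor form, had 6.17, 6.10 and 6.53 on basal arrays, against 7.61, 8.94 and 8.71 on non-basal arrays. Non-basal replicate 1 was the lowest of its fraction but above every basal array. The difference was -2.15 ± 0.354 (SE, n = 3 each; limma adjusted p = 0.0128), 4.43-fold. It missed the threshold on leaving out any 1 of basal replicates 1 and 2 and non-basal replicates 2 and 3, at adjusted p of 0.0502 to 0.072. Fgf2, basic FGF, a factor for fibroblasts and endothelial cells, had 6.78, 6.89 and 7.38 on basal arrays, against 8.43, 8.58 and 8.53 on non-basal arrays. Its difference was -1.50 ± 0.165 (adjusted p = 0.004), 2.83-fold, and it held in all 6 such fits. Basal replicate 3 had the highest basal value of Fgf7, Fgf10 and Fgf2, as it had of the fibroblast, smooth muscle and endothelial markers. Non-basal replicate 1 had the lowest non-basal value of all 3 ligands, as it had of the fibroblast, smooth muscle, basal epithelial, macrophage and lymphocyte markers, whereas endothelial, principal and clear cell markers were highest there among non-basal arrays. Basal replicate 3 also had the highest basal level of principal, clear cell and lymphocyte markers. The part of these cell types in the ligand differences was not tested.

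**Figure D3:**
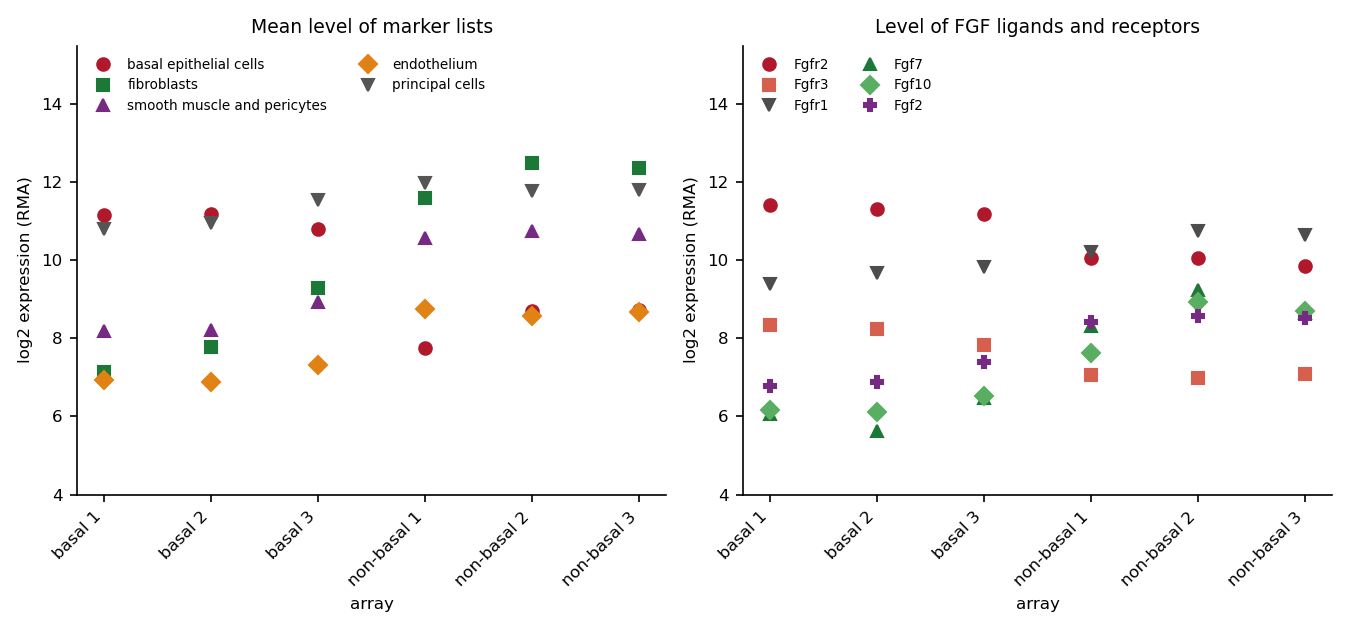
Left, mean log2 level of 5 lists of cell type markers on each of the 6 arrays; right, log2 level of 3 FGF receptors and 3 ligands on the same arrays. Fgf7, Fgf10 and Fgf2 are highest among basal arrays in replicate 3, the array with the highest basal fibroblast level of 9.29, whereas Fgfr2 and Fgfr3 are lowest there.

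Upstream sequences are shown for the receptors called higher and for the ligands with the lowest differences, which stand at opposite ends of the FGF signal. They are the 250 bases before the annotated gene start in the RefSeq annotation of the GRCr8 assembly, written along the strand of the gene, with GC boxes (GGGCGG on either strand) in capitals. Fgfr2 lies on the minus strand of chromosome 1 (chr1:194280915-194281164) and Fgfr3 on the minus strand of chromosome 14 (chr14:81227210-81227459). Fgf7 lies on the plus strand of chromosome 3 (chr3:133735377-133735626) and Fgf10 on the plus strand of chromosome 2 (chr2:52533689-52533938).
Fgfr2: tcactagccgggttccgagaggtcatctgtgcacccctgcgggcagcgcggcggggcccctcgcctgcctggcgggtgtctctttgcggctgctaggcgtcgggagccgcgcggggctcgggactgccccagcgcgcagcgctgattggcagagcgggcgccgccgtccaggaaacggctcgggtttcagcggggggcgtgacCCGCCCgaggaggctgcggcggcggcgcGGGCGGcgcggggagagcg
Fgfr3: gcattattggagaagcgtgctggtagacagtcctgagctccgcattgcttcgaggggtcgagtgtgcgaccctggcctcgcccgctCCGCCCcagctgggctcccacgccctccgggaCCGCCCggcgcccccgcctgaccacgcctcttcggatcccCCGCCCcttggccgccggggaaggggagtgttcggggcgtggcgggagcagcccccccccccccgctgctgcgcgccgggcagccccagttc
Fgf7: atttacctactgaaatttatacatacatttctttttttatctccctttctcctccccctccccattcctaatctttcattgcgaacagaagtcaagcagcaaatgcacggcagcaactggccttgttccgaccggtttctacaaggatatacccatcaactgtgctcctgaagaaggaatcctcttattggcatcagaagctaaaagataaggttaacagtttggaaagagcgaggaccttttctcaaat
Fgf10: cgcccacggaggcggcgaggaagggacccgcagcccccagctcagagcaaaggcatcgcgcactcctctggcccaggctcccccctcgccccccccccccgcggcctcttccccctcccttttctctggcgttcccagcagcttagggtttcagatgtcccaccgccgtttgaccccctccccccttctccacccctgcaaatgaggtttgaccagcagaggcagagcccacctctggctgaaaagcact

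These windows differed in base composition. That of Fgfr2 was 76.8% G or C with 37 CpG pairs and 2 GC boxes, and that of Fgfr3 was 74.4% with 26 CpG pairs and 3 GC boxes. The window of Fgf10 was 67.2% G or C with 13 CpG pairs and that of Fgf7 was 41.6% with 5, and neither held a GC box. Windows were found for 36 of the 42 genes, and 23 of these, 63.9%, had a GC box in at least 1 window. Of all 33469 windows in the set used, 30.5% had one. That set lacks some genes and holds more than 1 window for others. A GC box was present for 4 of the 6 genes called higher and for 1, Kl, of the 4 genes called lower that had a window. A CCAAT box (CCAAT, either strand) was found for 13 of the 36 genes and in 34.0% of all windows, and an AP-1 motif (TGANTCA, either strand) for 2 of the 36 and in 6.34% of all windows. The median G and C content was 59.2% over the windows of the FGF genes and 51.2% over all windows. The FGF shares count a gene with a match in any of its windows, whereas the shares of all windows count each window by itself. The set of all windows is also not restricted to genes that the arrays measured. A match of letters is a description and shows no binding.

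Fgf1, which binds every FGF receptor, had 8.52, 8.76 and 9.44 on basal arrays, against 8.75, 8.51 and 8.68 on non-basal arrays. Basal replicate 3 alone stood above the rest, and the difference of 0.26 ± 0.238 did not pass (SE, n = 3 each; limma adjusted p = 0.502). Fgf8, a ligand of the embryonic mesonephros in mouse, had 5.92, 5.84 and 5.90 on basal and 5.92, 5.92 and 5.98 on non-basal arrays, a difference of -0.05 ± 0.0601 (adjusted p = 0.605). The other 9 uncalled paracrine ligands, Fgf3, Fgf4, Fgf5, Fgf6, Fgf9, Fgf16, Fgf17, Fgf20 and Fgf22, had differences between -0.21 at Fgf9 and 0.16 at Fgf16. Of the 42 genes, 17 lay below the array median on all 6 arrays, 7 of them paracrine ligands. The deposited values hold no detection call, so a level this low cannot be told from background. Values equal to the last digit between arrays of a fraction occurred for 12 of the 42 genes, Fgf8 and Frs2 among them, and for 23.6% of all genes. None of the 12 called genes had such values.

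Of the endocrine ligands, which reach distant tissues through klotho coreceptors, Fgf23, a phosphate-regulating hormone of bone, had 5.82, 5.66 and 5.74 on basal arrays, against 5.98, 6.10 and 6.24 on non-basal arrays. The fractions did not overlap, but every value was below the array medians. The difference of -0.37 ± 0.0915 passed narrowly (SE, n = 3 each; limma adjusted p = 0.0473) and, of the 6 fits on 5 arrays, in the one without non-basal replicate 1. In the others the adjusted p was 0.0825 to 0.159. Fgf21, a metabolic hormone of liver, and Fgf19 had differences of 0.07 ± 0.0696 and -0.02 ± 0.0843.

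The carrier gene Fgfbp1, whose product releases FGFs from heparan sulphate, had 5.93, 6.33 and 5.54 on basal arrays, against 5.84, 5.10 and 5.11 on non-basal arrays. Its difference of 0.58 ± 0.28 was the largest in size among the genes that did not pass (limma adjusted p = 0.227), and the fractions overlapped. Fgfbp3 had a difference of -0.02 ± 0.0574. Fgf11 to Fgf14 encode intracellular homologues that are not secreted and are known to bind voltage-gated sodium channels. Of these, Fgf13 was higher, with 6.03, 6.18 and 5.85 on basal arrays, against 5.24, 5.36 and 5.41 on non-basal arrays. Its difference was 0.68 ± 0.103 (SE, n = 3 each; adjusted p = 0.00966), although all values lay below the array medians, and without basal replicate 1 the adjusted p was 0.0506. Fgf11, Fgf12 and Fgf14 had differences of -0.34, -0.30 and -0.04, with adjusted p of 0.13, 0.094 and 0.884. Fgfr1op2 matched the name rule but encodes a protein named after a fusion with FGFR1, and its difference was 0.13 ± 0.0801 (adjusted p = 0.324).

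Among 7 feedback inhibitors 1 was called, as higher, where 7.71% of all genes were higher. Of the 6 that were not, Spred3 alone had an unadjusted limma p under 0.05. Spred2, which blocks activation of Raf, had 9.25, 9.24 and 9.38 on basal arrays, against 8.60, 8.72 and 8.66 on non-basal arrays. The difference was 0.63 ± 0.0716 (SE, n = 3 each; limma adjusted p = 0.00438), 1.54-fold, and it held in each of the 6 fits on 5 arrays. Spred1 had 9.11, 9.14 and 8.96 on basal and 8.54, 8.94 and 8.94 on non-basal arrays, a difference of 0.26 ± 0.131 (adjusted p = 0.237). Spred3 had a difference of 0.24 ± 0.0921 (adjusted p = 0.14).

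None of the 4 Sprouty genes passed, with 0 of the 4 at an unadjusted limma p under 0.05. Spry1, an inhibitor of receptor tyrosine kinase signalling induced by ERK, had 10.41, 10.31 and 10.52 on basal arrays, against 10.44, 10.91 and 10.91 on non-basal arrays. Non-basal replicate 1 lay among the basal values. The difference was -0.34 ± 0.147 (adjusted p = 0.186), and without non-basal replicate 1 it was -0.50 with an adjusted p of 0.0209. Spry2 had 10.05, 10.21 and 9.87 on basal and 9.86, 10.06 and 9.97 on non-basal arrays, with a difference of 0.08 ± 0.108. Spry4 had 8.28, 8.45 and 7.61 on basal and 7.71, 8.09 and 8.01 on non-basal arrays, with a difference of 0.18 ± 0.234. Basal replicate 3 was the lowest of all 6 arrays for Spry4 and second lowest for Spry2. Spry3, below the array median on all 6 arrays, had a difference of -0.10 ± 0.138.

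Among 14 genes that FGF and ERK signalling is known to induce in other tissues, 7 were higher in the basal fraction, 2 were lower and 5 did not pass. That is 64.3% called, against 14.9% of all genes, and the median difference of the list was 0.48. The list was chosen with earlier results of these data known, so its share is a description and no test of an excess. Dusp6, the phosphatase that inactivates ERK, had 11.63, 11.73 and 10.75 on basal arrays, against 8.97, 9.45 and 9.35 on non-basal arrays. Basal replicate 3 was lowest by almost a log2 unit yet above every non-basal array. Its difference was 2.12 ± 0.287 (SE, n = 3 each; limma adjusted p = 0.00707), 4.33-fold. Dusp5, a nuclear ERK phosphatase, was higher by 1.13 ± 0.109 (adjusted p = 0.00298), Ccnd1, which encodes cyclin D1, by 0.83 ± 0.103 (adjusted p = 0.00553), and all 3 calls held in each of the 6 fits on 5 arrays. Fosl1, an AP-1 subunit, was higher by 1.27 ± 0.189 and Phlda1 by 0.74 ± 0.133. Fosl1 lost its call without basal replicate 2 (adjusted p = 0.0549), and Phlda1 when basal replicate 1 or 2, or non-basal replicate 2, was missing. Myc, named after its value was seen, was higher by 1.10 ± 0.251, a call lost on leaving out any 1 of basal replicates 1 and 2 and non-basal replicates 2 and 3.

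The Etv genes, ETS factors downstream of FGF receptors, differed among themselves. Etv4 had 8.94, 9.03 and 9.78 on basal arrays, against 8.10, 8.26 and 8.28 on non-basal arrays, a difference of 1.04 ± 0.229 (SE, n = 3 each; limma adjusted p = 0.0334). Etv5 had 7.90, 8.09 and 8.09 on basal and 7.94, 8.09 and 7.96 on non-basal arrays, a difference of 0.03 ± 0.0845 (adjusted p = 0.824). Etv1, named after its value was seen, was lower, with a mean of 8.27 ± 0.23 (SD) on basal and 9.02 ± 0.235 on non-basal arrays, a difference of -0.75 ± 0.164 (adjusted p = 0.0325). Il17rd, which encodes the membrane antagonist Sef of FGF receptors, was also lower, with 6.63, 6.34 and 7.04 on basal arrays, against 7.57, 7.44 and 7.44 on non-basal arrays. Its difference was -0.81 ± 0.177 (adjusted p = 0.0318). With 1 array left out, the calls of Etv4 and Il17rd held only without basal replicate 3, with adjusted p of up to 0.117 and 0.119 otherwise, and that of Etv1 held without basal replicate 3 or non-basal replicate 1, with up to 0.13 otherwise. The number of target genes higher was 3 without basal replicate 2 and 4 when basal replicate 1 or non-basal replicate 2 was missing. With any of these or non-basal replicate 3 missing, both lower calls were lost. Leaving out non-basal replicate 1 gave 1 lower.

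Of 21 measured genes that act inside the cell below the FGF receptors, in the Ras and ERK cascade and in the PI3K and STAT branches, 4 were higher, 2 were lower and 15 did not pass. That is 28.6% called, against 14.9% of all genes, and the median difference was 0.18. As this list too was chosen with earlier results known, its share tests no excess. The docking protein genes Gab1 and Gab2 went opposite ways. Gab1 had 10.89, 10.79 and 10.53 on basal arrays, against 10.07, 9.93 and 9.91 on non-basal arrays, a difference of 0.77 ± 0.111 (SE, n = 3 each; limma adjusted p = 0.00844). Gab2 had 8.40, 8.62 and 8.73 on basal arrays, against 9.31, 9.53 and 9.45 on non-basal arrays, a difference of -0.85 ± 0.11 (adjusted p = 0.00596). The call of Gab2 held in each of the 6 fits on 5 arrays, and that of Gab1 was lost when basal replicate 2 or non-basal replicate 3 was missing, with adjusted p of up to 0.0519. Nras, a Ras GTPase, was higher by 0.70 ± 0.118, and so were the Ras-inactivating genes Nf1, by 0.52 ± 0.112, and Rasa1, by 0.40 ± 0.0758. Nf1 was called only when basal replicate 3 was missing, Nras when that array or non-basal replicate 1 was, and Rasa1 was lost without either of basal replicates 1 and 2 or non-basal replicate 3. Stat3, the transcription factor of the STAT branch, was lower at -0.28 ± 0.0639, and no fit on 5 arrays called it. All 4 higher calls were lost when basal replicate 2 or non-basal replicate 3 was missing, and without basal replicate 1 or non-basal replicate 2 the number was 1 or 2. Without basal replicate 3 it was 7.

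**Figure D4:**
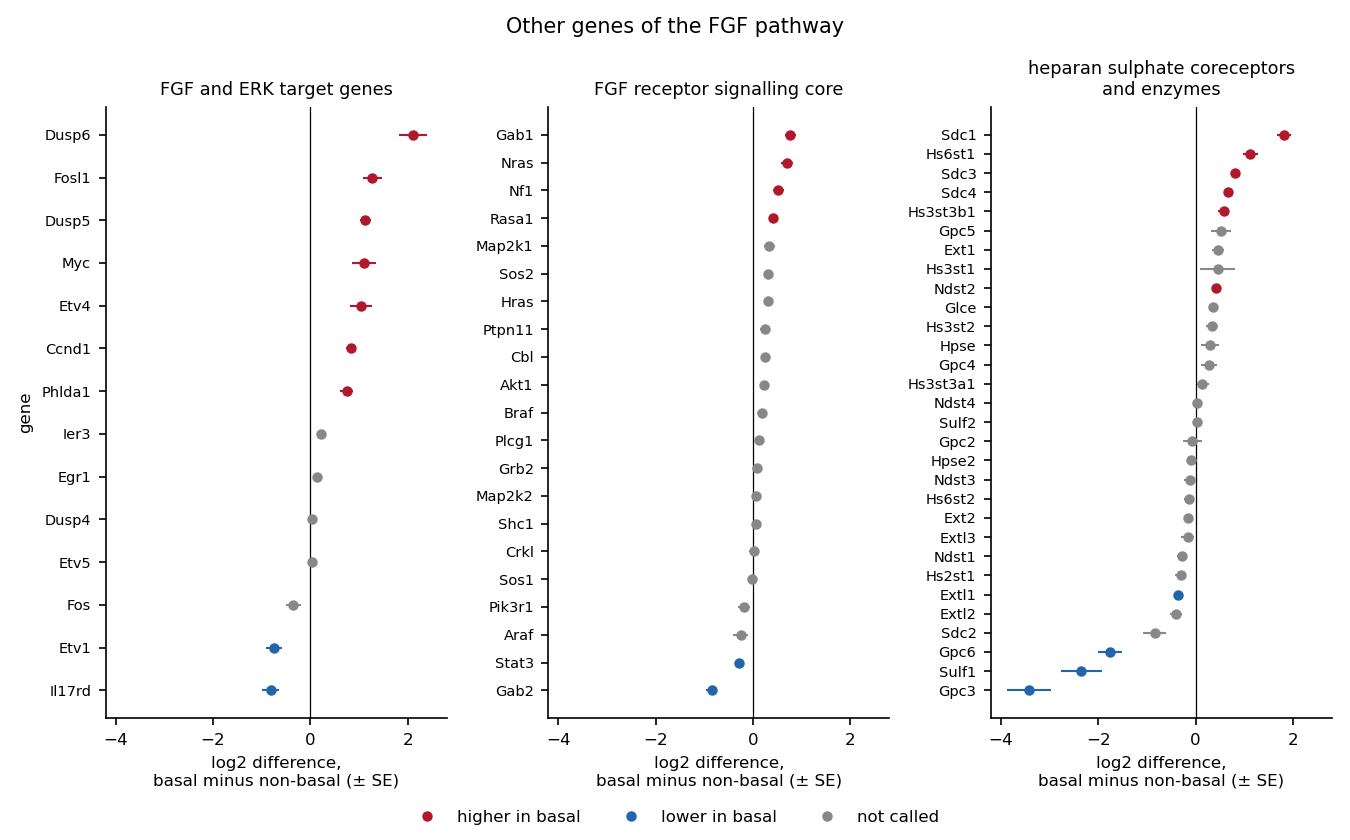
Log2 difference, basal minus non-basal, with moderated SE, of 14 FGF and ERK target genes, 21 genes of the signalling core and 30 genes of heparan sulphate proteoglycans and their enzymes. Dusp6 at 2.12 and Sdc1 at 1.81 are highest, and Gpc3 at -3.42 is lowest.

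Heparan sulphate, the sugar chain that FGFs need to bind their receptors, is carried by syndecans and glypicans. Of 30 measured genes of these carriers and of the enzymes that build and trim the chain, 6 were higher, 4 were lower and 20 did not pass. That is 33.3% called, against 14.9% of all genes, and the median difference was 0.02. Earlier results of these data were known when the list was chosen, so its share tests no excess. Sdc1, the main epithelial syndecan, had 12.93, 12.93 and 12.53 on basal arrays, against 10.82, 11.02 and 11.12 on non-basal arrays, a difference of 1.81 ± 0.143 (SE, n = 3 each; limma adjusted p = 0.0022), or 3.51-fold. Sdc3 and Sdc4 were higher by 0.81 ± 0.0808 and 0.66 ± 0.0828. The remaining syndecan, Sdc2, named after its value was seen, had a difference of -0.84 ± 0.236 that did not pass (adjusted p = 0.0688), although its fractions did not overlap. Hs6st1, a sulphotransferase that adds groups recognised by FGFs, was also higher and had a difference of 1.13 ± 0.149 (adjusted p = 0.0065). Calls for Sdc1, Sdc3, Sdc4 and Hs6st1 held in each of the 6 fits on 5 arrays.

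Of the glypicans, 2 were lower, where 7.14% of all genes were lower. Gpc1 was not analysed here. Gpc3 had 6.99, 7.54 and 8.24 on basal arrays, against 10.20, 11.57 and 11.26 on non-basal arrays, a difference of -3.42 ± 0.45 (SE, n = 3 each; limma adjusted p = 0.00637), or 10.7-fold lower, in all 6 fits. Gpc6 was lower at -1.75 ± 0.243 (adjusted p = 0.00756), a call lost without non-basal replicate 3 at 0.0507. None of the other 3 measured glypicans passed. The other called genes, named after their values were seen, were Ndst2 and Hs3st3b1, higher by 0.42 and 0.57, and Sulf1 and Extl1, lower at -2.35 and -0.36. Sulf1 encodes an enzyme that removes sulphate groups needed by FGF2, and it was called in 2 of the 6 fits, those without basal replicate 3 or non-basal replicate 1, as was Extl1. Ndst2 was lost when replicate 2 of either fraction was missing, and Hs3st3b1 then or without non-basal replicate 3. For Gpc3 and Sulf1, basal replicate 3 was the highest basal array and non-basal replicate 1 the lowest non-basal array, as for the fibroblast markers, whose part in these values was not tested. Without 1 array, the number of genes lower ranged from 1, without non-basal replicate 3, to 8, without non-basal replicate 1. It was 2 when basal replicate 1 or 2, or non-basal replicate 2, was the one missing.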

How the data were processed

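Total RNA of 3 basal and 3 non-basal fractions was hybridised to 1 array each. The authors deposited RMA expression on a log2 scale. The submitters' processing notes name Affymetrix Expression Console, and the probe set library and its genome build are not given in the sources used here. RMA forces the probe intensities of the arrays to 1 distribution before they are summarised, so a shift of most genes would be largely removed. The medians of the summarised values still ran from 6.63 to 6.70 between arrays. No depth applies to arrays, and their number limits the precision.

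Of 36685 probe sets, 18511 had 1 gene symbol in the platform annotation, 575 had several and 17599 none. The probe set with the highest mean over 6 arrays stood for its gene, giving 18166 genes. All 42 FGF symbols matched RefSeq by Entrez identifier. Differences, basal minus non-basal, were fitted over all 18166 genes in limma 3.58.1 (R 4.3.3; lmFit, eBayes) with no block for replicate number, two-sided, with Benjamini-Hochberg adjustment and calls at 0.05. SEs are moderated. The fitting code was tested on simulated data, where the smallest changes were recovered only in part. A small difference that did not pass is thus no evidence of equal levels.

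The titles number replicates 1 to 3 in each fraction. Deviations from the fraction means correlated at 0.0312, 0.0383 and 0.0278 for equal numbers, and from -0.0679 to 0.027 for unequal numbers. The equal-number values were the highest, but with 3 arrays per fraction they cannot show whether equal numbers mark a pair. The labels state no pairing, so the main fit had no block, and the replicate block was run as an alternative. Members and lists were chosen with earlier results of these data known. Values per array are given for every called member and for Fgfr4, Fgf1, Fgf8, Spry1, Spry2, Spry4, Spred1 and Frs2, with the largest difference among the rest, and up to 6 genes of smallest p are named per pathway list, with Etv4, Etv5, Dusp6 and Il17rd. Alternatives were the replicate block, quantile normalization, median centring, a filter at a mean of 5, array weights, a robust spread with an intensity trend, averaging a gene's probe sets, each array left out, and basal replicate 3 and non-basal replicate 1 left out together.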

Additional observations from a re-analysis of the deposited data

How the results depend on the processing

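The number of FGF genes higher in the basal fraction, 6, stayed between 4 and 7 under all 14 alternatives, and the number lower, 6, between 2 and 8. With 1 array left out the ranges were 4 to 6 higher and 2 to 6 lower. Fgfr2, Fgfr3, Fgfrl1, Spred2, Fgf7 and Fgf2 kept their direction and their call under all 14. With the replicate number as a block, 6 FGF genes were higher and 4 lower, since Kl (adjusted p = 0.0819) and Fgf23 (0.111) were lost. The block also gave 1 signalling gene and 1 target gene lower, against 2 each without it. Median centring gave 1 signalling gene lower. Array weights gave 8 signalling genes higher and 7 heparan sulphate genes lower. With both basal replicate 3 and non-basal replicate 1 dropped there were 7 heparan sulphate genes lower, and Spry1 then was lower at -0.55 (adjusted p = 0.0119). For alternatives other than leaving out 1 array, the shares of all genes called are not given here. With 1 array left out, signalling genes higher ranged from 0 to 7 and lower from 1 to 1, target genes higher from 3 to 7 and lower from 0 to 2, and heparan sulphate genes lower from 1 to 8. The sign turned for Fgf1 without basal replicate 3 and for Spry2 without basal replicate 2, neither of which was called; over the fits with 1 array left out, Fgf1 ranged from -0.00486 to 0.46 and Spry2 from -0.00227 to 0.17. Over all genes, the fit without basal replicate 3 called 2068 higher and 1475 lower, against 1401 and 1297 with 6 arrays. The fit without non-basal replicate 1 called 1365 and 1607, and those without any 1 of the others 509 to 624 and 542 to 637. The cause of these changes was not tested. The values carry no background measure, so dim genes such as Fgf23, Kl and Fgf13 are limited by signal.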

Other observations

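Lists added after the data were seen describe neighbours of the FGF system. In the system of hepatocyte growth factor, another mesenchymal ligand of an epithelial receptor, 1 of 8 genes was higher, 1 was lower and 6 did not pass. That is 25% called, against 14.9% of all genes (7.71% higher and 7.14% lower). The receptor Met had 11.19, 11.37 and 10.60 on basal arrays, against 8.96, 8.86 and 8.65 on non-basal arrays, a difference of 2.23 ± 0.213 (SE, n = 3 each; limma adjusted p = 0.00295). The ligand Hgf averaged 5.76 ± 0.332 on basal arrays and 7.40 ± 0.355 on non-basal arrays (SD), a difference of -1.64 ± 0.235 (adjusted p = 0.0082), lost without non-basal replicate 3 at 0.0539. The related receptor Mst1r and the protease inhibitor genes Spint1 and Spint2 did not pass, at -0.31, 0.44 and 0.22.

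Among 6 surface proteins known to bind FGF receptors, Cdh1, the epithelial cadherin, and Nrcam were higher by 0.89 ± 0.117 and 0.76 ± 0.122, and Cdh2, the neural cadherin, was lower at -0.81 ± 0.155 (limma adjusted p = 0.00639, 0.0119 and 0.0218). The other 3 did not pass, so that 50% were called, against 14.9% of all genes. The Cdh1 call held in each of the 6 fits on 5 arrays. That of Nrcam was lost without basal replicate 2, non-basal replicate 2 or non-basal replicate 3, and that of Cdh2 without basal replicate 1, non-basal replicate 2 or non-basal replicate 3. Of 7 measured voltage-gated sodium channel genes, the known partners of the protein of Fgf13, 0 passed in limma and 1, Scn8a, lay at an unadjusted p under 0.05, with a difference of -0.38 ± 0.111.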
